A study of Mus musculus with 4 samples.

Results

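The core circadian clock loop was examined in mouse liver through 10 genes fixed by name: the activators Arntl (BMAL1), Clock and Npas2, the period and cryptochrome genes Per1, Per2, Per3, Cry1 and Cry2, and the nuclear receptors Nr1d1 and Nr1d2 (REV-ERB alpha and beta). All 10 were found in the deposited table of 25655 genes and all 10 were among the 12967 genes with enough reads to be tested. RNA had been sequenced from 2 livers or pools of livers labelled HFD-WT (ADAR2+/+ with GluR-B R/R) and 2 labelled HFD-KO (ADAR2-/- with GluR-B R/R). ADAR2 is an enzyme that edits adenosine to inosine in RNA, and the GluR-B R/R allele carried by both groups encodes the edited form of a glutamate receptor subunit, which keeps ADAR2-deficient mice alive. The mice were male on a B6129S background, and both groups ate the high-fat diet for 12 weeks from 5 weeks of age. They were kept under 12 h of light and 12 h of darkness with lights on at 6 in the morning. The clock time at which these livers were collected, whether the mice had been fasted and whether a library holds 1 mouse or several are not given in the sources used here. The study gives more mice per group than there are libraries, so a library may hold several mice or the libraries a part of the mice. The p-values therefore measure only the spread between these libraries, which may be technical. The clock time matters here because most of the 10 messages cycle over the day.

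The clock is a feedback loop of transcription. BMAL1 pairs with CLOCK or NPAS2, binds E-box sequences and turns on the Per, Cry and Nr1d genes, whose proteins then act back on the loop. PER and CRY proteins block the activators, whereas the REV-ERB receptors repress Arntl, Clock, Npas2 and Cry1 through ROR response elements (ROREs). In liver the messenger RNAs of Arntl and Npas2 and of Nr1d1 cycle strongly over the day and in opposite phase. Feeding and glucocorticoids can shift these messages.

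The libraries held between 24480798 and 28691330 counts, and 3 counts, taken as the smallest level a library could show, corresponded to between 0.104 and 0.126 CPM (reads of a gene, scaled to a common library total), which covers counting error only. Values below are CPM scaled by the TMM method (trimmed mean of M-values) unless stated otherwise. Adarb1, which encodes ADAR2, had 15.7 and 19.8 CPM in the HFD-WT libraries and 6.23 and 9.55 CPM in the HFD-KO libraries, so the targeted gene was lower in both HFD-KO libraries but still had reads there (log2 difference of -1.17 ± 0.20, standard error; adjusted p = 0.159 with edgeR and 0.000645 with DESeq2). The 6 hepatocyte markers were abundant in every library, with summed levels of 79830 and 79780 CPM in HFD-WT and 81520 and 92790 CPM in HFD-KO. For the markers of all cell types, edgeR called 0 at an adjusted p under 0.05, against 0.0771% of all genes tested. DESeq2 called 3 (all genes, 0.944%), the Kupffer cell genes Vsig4 and Cd5l and the stellate cell gene Reln, all lower in HFD-KO. Of 6 Kupffer cell and macrophage genes, 6 had a log2 fold change below 0 and 5 of these an unadjusted p under 0.05 by edgeR. At that threshold 4.73% of all genes tested were lower and 4.25% were higher in HFD-KO. The summed levels of these 6 genes were 222 and 286 CPM in HFD-WT against 175 and 171 CPM in HFD-KO. Of 6 stellate cell genes, 6 lay below 0 and 3 had an unadjusted p under 0.05, with 436 and 481 CPM against 403 and 313 CPM. Of 5 erythroid genes, 5 lay above 0 and 3 had an unadjusted p under 0.05, with 757 and 601 CPM against 811 and 1146 CPM. The 5 B and plasma cell genes summed to 4.39 and 3.53 CPM in HFD-WT and to 17.1 CPM in replicate 1 but 4.06 CPM in replicate 2 of HFD-KO. All 5 lay above 0, and 1 had an unadjusted p under 0.05. Cholangiocyte, T and NK cell and neutrophil lists summed to between 1.25 and 7.25 CPM, Mzb1 was at 0 in 1 library, and the 5 endothelial genes summed to between 193 and 207 CPM. The cholangiocyte, T and NK cell, neutrophil and endothelial lists held 0 tested genes with an unadjusted p under 0.05. A smaller number of cells of a type cannot be told apart from less RNA per cell in bulk liver, and the part of these differences in the clock values was not tested.

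Promoter sequences were examined because the loop is written in short DNA motifs that its proteins bind. Windows from 250 to 11 bases before the RefSeq gene start (build GRCm38.p6) were held for 9 of the 10 members, in 13 windows since some genes have several starts. Per2 had none. Each window was searched on both strands for the E-box CACGTG, the D-box TTATGNAA, the cyclic AMP response element TGACGTCA and the RORE core as AAGGTCA or TAGGTCA. Across all 32851 windows of the same length, 5.69% held the E-box, 3% the D-box, 1.44% the cyclic AMP response element and 5.97% the RORE core. An E-box was found in the windows of Per1 and Cry1 and a D-box in those of Per1 and Per3, and the other windows of the members held none of these letters. A match describes the letters only, and a window without a match says nothing of sites farther away. The 3 windows with a match are shown because they hold the E-box letters that the BMAL1 pair binds and the D-box letters that DBP binds. Capitals mark the motifs.
Per1, chr11:69098699-69098938, plus strand: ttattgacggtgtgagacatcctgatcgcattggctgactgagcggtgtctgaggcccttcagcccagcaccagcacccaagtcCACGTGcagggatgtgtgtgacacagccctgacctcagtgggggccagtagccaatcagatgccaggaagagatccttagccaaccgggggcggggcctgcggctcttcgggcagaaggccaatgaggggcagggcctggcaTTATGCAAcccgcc
Cry1, chr10:85185065-85185304, minus strand: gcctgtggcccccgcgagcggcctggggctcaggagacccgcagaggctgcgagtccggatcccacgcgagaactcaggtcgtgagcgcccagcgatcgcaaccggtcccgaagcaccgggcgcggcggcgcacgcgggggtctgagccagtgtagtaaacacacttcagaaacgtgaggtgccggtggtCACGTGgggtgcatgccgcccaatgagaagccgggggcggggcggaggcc
Per3, chr4:151044676-151044915, minus strand: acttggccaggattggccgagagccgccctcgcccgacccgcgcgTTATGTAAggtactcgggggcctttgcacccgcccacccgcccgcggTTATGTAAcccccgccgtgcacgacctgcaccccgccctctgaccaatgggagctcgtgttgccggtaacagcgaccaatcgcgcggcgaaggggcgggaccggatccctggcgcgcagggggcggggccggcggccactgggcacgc
In Per1 the E-box lay from 166 to 161 and the D-box from 24 to 17 bases before the start. In Cry1 the single E-box lay from 60 to 55 bases before the start. The D-boxes of Per3, both TTATGTAA, lay from 205 to 198 and from 158 to 151 bases before the start.

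The main question was whether the loop was set differently in HFD-KO and HFD-WT livers. Nr1d1 had the largest positive and Cry1 the largest negative log2 fold change of the 10 genes, and the activator Arntl differed more between libraries of a group than between the groups. With edgeR's quasi-likelihood test, 0 of the 10 members had an adjusted p under 0.05, against 0.0771% of all genes tested (0.054% higher and 0.0231% lower in HFD-KO). DESeq2's Wald test called 1 member, Nr1d1, at an adjusted p under 0.05, against 0.944% of the 12397 genes it gave an adjusted p (0.46% higher and 0.484% lower). At an unadjusted p under 0.05 by edgeR, 2 members were higher in HFD-KO livers, Nr1d1 and Nr1d2, against 4.25% of all genes tested, and 1 was lower, Cry1, against 4.73%, and both directions together made up 8.98% of all genes tested. By DESeq2 at an unadjusted p under 0.05, 1 member was higher and 0 were lower, against 1.76% and 2.15% of the 17301 genes with a p, 3.91% in all. Both HFD-KO libraries lay above both HFD-WT libraries for 4 members, Clock, Per1, Nr1d1 and Nr1d2, and below them for 2, Per2 and Cry1. Such separation was common, as it was met in the higher direction by 20.5% and in the lower direction by 20.3% of all genes tested, 40.8% in all. The median log2 fold change was 0.06 over the 10 members and 0.01 over all genes tested. With 2 libraries against 2, an exact permutation test of 1 gene cannot give a p below 0.333.

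**Figure D1:**
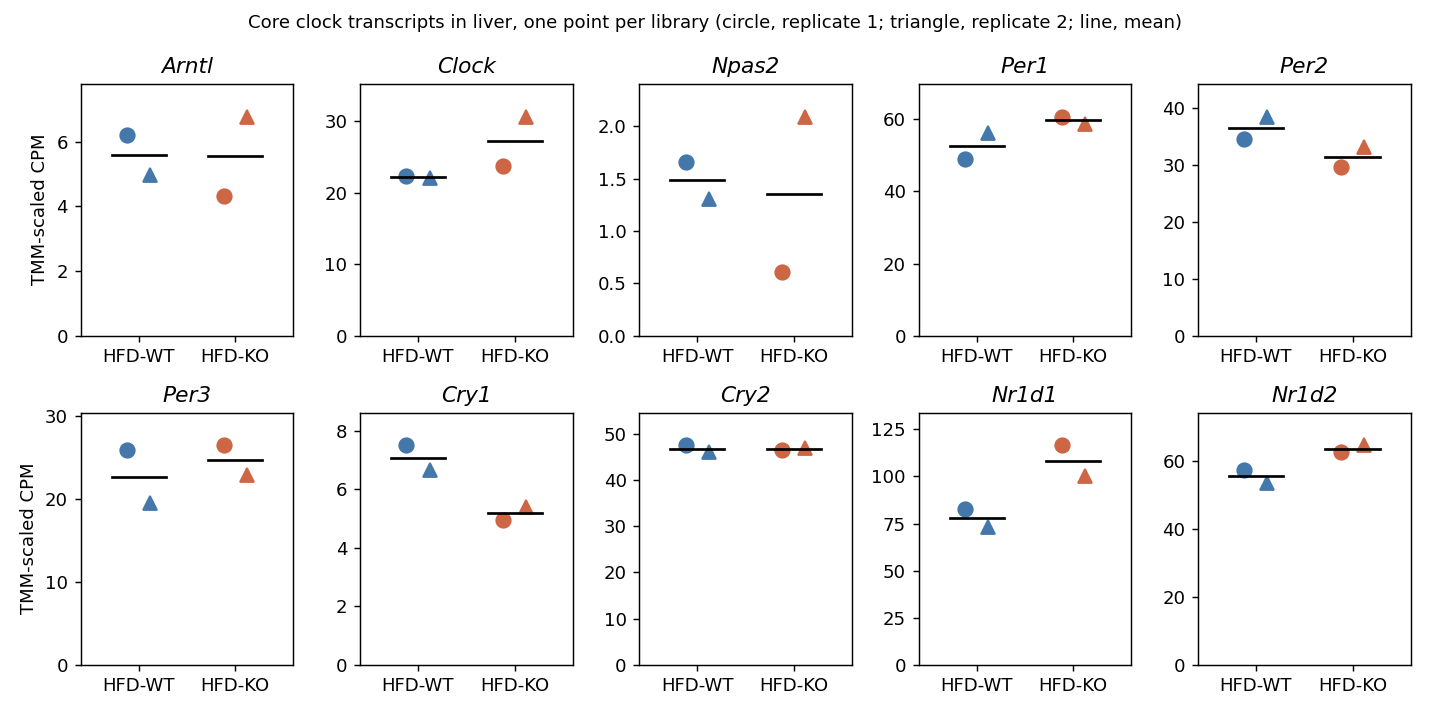
Level of the 10 core clock transcripts in TMM-scaled CPM (vertical axis, starting at 0) in the HFD-WT and HFD-KO libraries (horizontal axis). Circles are replicate 1, triangles are replicate 2 and lines are group means. The Nr1d1 points of HFD-KO (117 and 100.2 CPM) sit above those of HFD-WT (82.8 and 73.4 CPM), the Cry1 points sit below, and the Arntl and Npas2 points of the groups overlap.

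Nr1d1 encodes REV-ERB alpha, the heme-binding repressor of Arntl. It lies on chromosome 11 from 98658758 to 98666159 (GRCm39, ENSMUSG00000020889). Nr1d1 had 2399 and 2018 reads, or 82.8 and 73.4 CPM, in the HFD-WT libraries and 3067 and 2394 reads, or 117 and 100.2 CPM, in the HFD-KO libraries. Both HFD-KO values were above both HFD-WT values. The means were 78.1 ± 6.7 CPM (SD, n = 2) and 108 ± 11.5 CPM (SD, n = 2), a 1.39-fold difference. Its log2 fold change was 0.47 with a standard error of 0.11 and a 95% interval from 0.23 to 0.72, and the p was 0.0025 unadjusted and 0.257 adjusted by edgeR. The unadjusted p stayed under 0.05 in every alternative that kept all libraries. When a library was left out, the log2 fold change ranged from 0.36 to 0.58. The adjusted p was 0.048 by edgeR with no filter on low counts and 0.034 with DESeq2's Wald test. By edgeR it was 0.199 with the replicate number as a block, 0.256 with DESeq2 size factors and 0.306 with library size alone. The table gives Thra, a thyroid hormone receptor gene on the opposite strand, 1075 bases in common with Nr1d1, and whether strand was used in counting is not stated. Thra had 18.0 and 19.2 CPM in HFD-WT and 19.8 and 16.6 CPM in HFD-KO, so the groups overlapped (log2 fold change -0.03).

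Nr1d2 encodes REV-ERB beta, which shares the repressor role, and lies on chromosome 14 from 4230569 to 4265642 (ENSMUSG00000021775). Nr1d2 had 57.3 and 53.6 CPM in the HFD-WT libraries and 62.6 and 64.5 CPM in the HFD-KO libraries. The groups did not overlap, but the difference was smaller than for Nr1d1. The means were 55.4 ± 2.6 CPM and 63.5 ± 1.4 CPM (SD, n = 2 each). On the log2 scale the difference was 0.20 (standard error 0.08, 95% interval 0.01 to 0.39), with an unadjusted p of 0.046 and an adjusted p = 0.543 by edgeR. Among the 9 alternatives, the unadjusted p of Nr1d2 was under 0.05 with DESeq2 size factors and without HFD-KO replicate 1, and in none of the other 7. Of the 2 receptors, Nr1d1 had the higher level per length in every library, between 25.6 and 39.2 RPKM (reads scaled for gene length and library total) against between 10.9 and 12.5 RPKM for Nr1d2.

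The activators, which the REV-ERB proteins repress, had no member with an unadjusted p under 0.05, and the median log2 fold change of the 3 genes was -0.02. Arntl encodes BMAL1, the partner without which the loop stops, and lies on chromosome 7 from 112806672 to 112913333 (ENSMUSG00000055116). Arntl had 180 and 137 reads, or 6.22 and 4.98 CPM, in HFD-WT and 114 and 162 reads, or 4.33 and 6.78 CPM, in HFD-KO. Its highest and its lowest library were both HFD-KO. The log2 difference was -0.02 (standard error 0.24, 95% interval -0.58 to 0.55, adjusted p = 0.990 by edgeR). The sign turned without HFD-WT replicate 1 or without HFD-KO replicate 1.

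Clock, whose protein pairs with BMAL1, lies on chromosome 5 from 76357715 to 76452639 (ENSMUSG00000029238). Clock had 22.4 and 22.1 CPM in the HFD-WT libraries and 23.8 and 30.7 CPM in the HFD-KO libraries. The HFD-WT values were nearly equal, and HFD-KO replicate 2 stood above the other 3 libraries. Its log2 fold change was 0.29 (standard error 0.12, 95% interval -0.002 to 0.58), with an unadjusted p of 0.051 and an adjusted p = 0.556 by edgeR. Without HFD-KO replicate 1 it was 0.46, and without HFD-KO replicate 2 it was 0.10. With all libraries kept, the adjusted p was 0.444 by edgeR with no filter on low counts and 0.9999 with DESeq2's Wald test. Npas2, a close relative of Clock, lies on chromosome 1 from 39232812 to 39402317 (ENSMUSG00000026077) and had few reads, 48 and 36 in HFD-WT and 16 and 50 in HFD-KO. This gave 1.66 and 1.31 CPM against 0.608 and 2.09 CPM. The HFD-KO libraries thus held both the lowest and the highest value, and the 95% interval of the log2 fold change of -0.15 ran from -1.38 to 1.08 (adjusted p = 0.957 by edgeR). The gap between the HFD-KO libraries was larger than the difference of the group means. Without HFD-KO replicate 2 the log2 fold change was -1.28.

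The period genes encode the large repressor proteins that build up and shut off the activators. Per1, which also responds to glucocorticoids and cyclic AMP, lies on chromosome 11 from 68986043 to 69000786 (ENSMUSG00000020893). Per1 had 48.8 and 56.1 CPM in HFD-WT and 60.7 and 58.6 CPM in HFD-KO. Both HFD-KO values were above both HFD-WT values, and the difference of the group means was smaller than the gap between the HFD-WT libraries. This was a log2 fold change of 0.19 (standard error 0.09, 95% interval -0.04 to 0.41, unadjusted p of 0.088 and adjusted p = 0.630 by edgeR).

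Per2 lay the other way. It lies on chromosome 1 from 91343704 to 91387046 (ENSMUSG00000055866), and in liver its message is known to follow signals from the body as well as the local clock. Per2 had 34.6 and 38.6 CPM in the HFD-WT libraries and 29.7 and 33.1 CPM in the HFD-KO libraries, without overlap. The log2 fold change was -0.22 (standard error 0.10, 95% interval -0.45 to 0.01, unadjusted p of 0.057 and adjusted p = 0.570 by edgeR), with values from -0.30 to -0.14 over the fits that left out 1 library. Per3, on chromosome 4 from 151088109 to 151129122 (ENSMUSG00000028957), had 25.9 and 19.5 CPM in HFD-WT and 26.4 and 22.8 CPM in HFD-KO, so the groups overlapped. Its log2 fold change was 0.12 (standard error 0.15, 95% interval -0.22 to 0.46, adjusted p = 0.852 by edgeR) and turned to -0.07 without HFD-WT replicate 2. All of Per3 lies inside the region that the table gives for Camta1 on the same strand, which had between 2.29 and 3.49 CPM.

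The cryptochromes encode the strongest repressors of the BMAL1 and CLOCK pair. Cry1 is also a RORE target of the REV-ERB proteins and lies on chromosome 10 from 84967564 to 85020928 (ENSMUSG00000020038). The targeted gene Adarb1 lies on the same chromosome, from 77126560 to 77254104. Whether DNA inherited together with the targeted allele bears on the Cry1 values was not tested. Cry1 had 217 and 183 reads, or 7.49 and 6.65 CPM, in HFD-WT and 130 and 129 reads, or 4.94 and 5.40 CPM, in HFD-KO. Both HFD-KO values were below both HFD-WT values. The means were 7.07 ± 0.59 CPM and 5.17 ± 0.33 CPM (SD, n = 2 each), a ratio of 0.730. Its log2 fold change was -0.45 (standard error 0.16, 95% interval -0.82 to -0.08), with an unadjusted p of 0.022 and an adjusted p = 0.467 by edgeR. The adjusted p of Cry1 lay between 0.292 and 0.9999 over the alternatives, and its unadjusted p was not under 0.05 with DESeq2's Wald test, without HFD-WT replicate 1 or without HFD-KO replicate 1. Cry2, on chromosome 2 from 92233991 to 92264388 (ENSMUSG00000068742), had 47.5 and 46.0 CPM in HFD-WT and 46.6 and 47.0 CPM in HFD-KO. It varied least of the 10 genes, with a log2 fold change of 0.00 (standard error 0.08) and a 95% interval from -0.19 to 0.19 (adjusted p = 0.998 by edgeR). Its sign turned under several alternatives, within 0.05 of 0 in each.

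**Figure D2:**
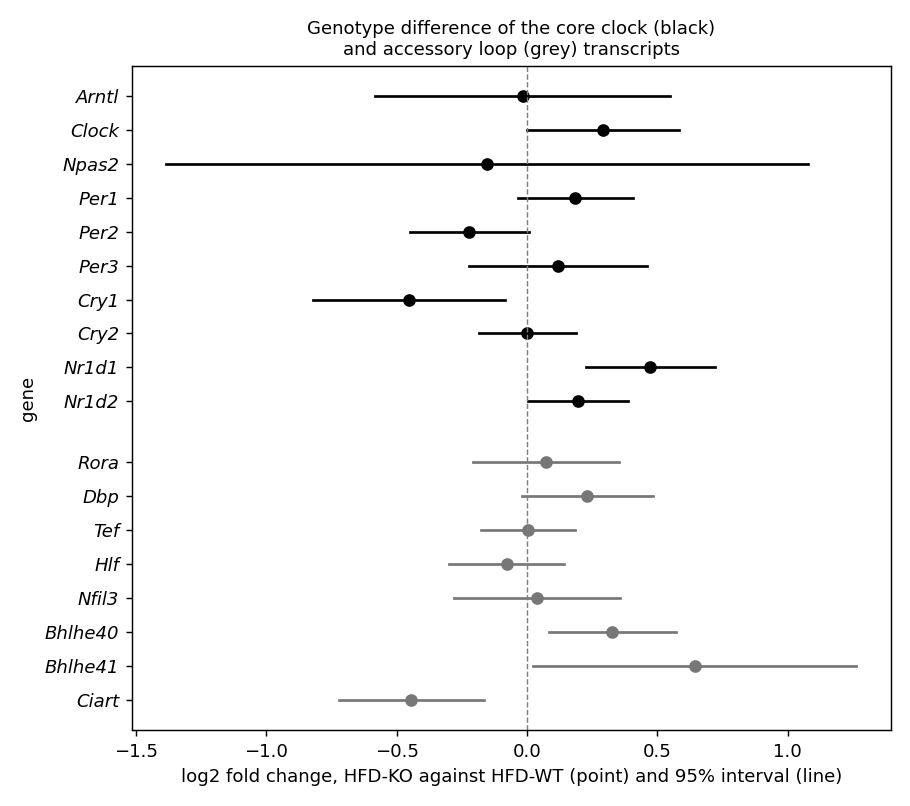
Log2 ratio of HFD-KO to HFD-WT levels (horizontal axis, points) with 95% intervals (lines) for the 10 core clock genes in black and 8 accessory loop genes in grey (vertical axis). The intervals of Nr1d1 (0.23 to 0.72), Nr1d2 (0.01 to 0.39) and Cry1 (-0.82 to -0.08) leave out 0 before adjustment over all genes, and that of Npas2 is the widest.

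Levels were compared between members on the deposited RPKM scale, which divides by exon length. Nr1d1 was highest, Nr1d2 second and Npas2 lowest in all 4 libraries, with Npas2 between 0.123 and 0.418 RPKM. Cry2, between 9.75 and 10.2 RPKM, and Per1, between 8.09 and 9.87 RPKM, overlapped in range, followed by Per2 with between 4.66 and 6.27 RPKM. The next ranges also overlapped from one gene to the next, from Per3 (2.64 to 3.46 RPKM) to Clock (2.11 to 2.79 RPKM), Cry1 (1.49 to 2.31 RPKM) and Arntl (1.28 to 1.98 RPKM). Messages of the REV-ERB receptors were therefore abundant and those of Arntl and Npas2 scarce in both genotypes.

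How the members varied within a genotype was described as the log2 CPM of replicate 2 minus that of replicate 1. The sizes of these differences had a median of 0.17 in HFD-WT and 0.19 in HFD-KO over the 10 members, against 0.12 and 0.15 over all genes tested. The activators separated the HFD-KO libraries most, with differences of 1.78 for Npas2 (16 and 50 reads), 0.65 for Arntl and 0.37 for Clock. In the same libraries Nr1d1 differed by -0.22, Per3 by -0.21 and Per1 by -0.05, so the library with more activator message had less of these. Per2 (0.16), Cry1 (0.13), Nr1d2 (0.04) and Cry2 (0.01) differed in the same direction as the activators. In the HFD-WT libraries 8 of the 10 members were lower in replicate 2, among them Npas2 (-0.34), Arntl (-0.32), Nr1d1 (-0.18) and Per3 (-0.42). Per1 (0.20) and Per2 (0.16) differed the other way. Cry1 and Nr1d2 differed between replicates by at most 0.17 in size in either group.

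**Figure D3:**
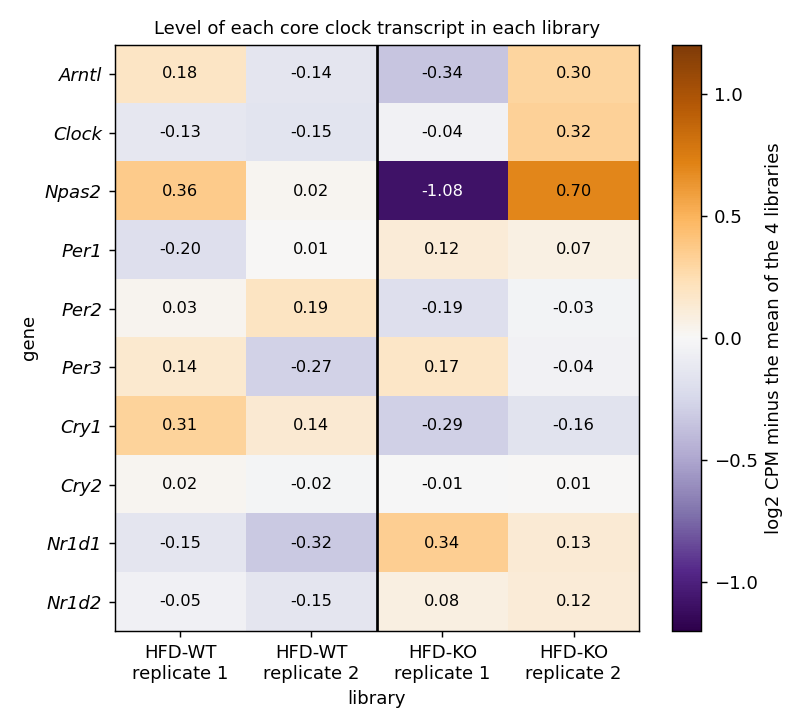
Level of each of the 10 core clock transcripts (rows) in each library (columns), as log2 CPM minus the mean of that gene over the 4 libraries, printed in each cell and coloured from purple (low) to orange (high). Npas2 and Arntl are lowest in HFD-KO replicate 1 (-1.08 and -0.34) and highest in HFD-KO replicate 2 (0.70 and 0.30), while for Nr1d1 and Cry1 the libraries of the groups do not overlap.

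Differences between 2 members in the same library do not depend on how libraries are scaled, and were given as values without a test. The log2 CPM of Arntl minus that of Nr1d1 was -3.736 and -3.881 in HFD-WT and -4.75 and -3.885 in HFD-KO. The group means differed by -0.51, but HFD-KO replicate 2 was nearly at the value of HFD-WT replicate 2. Npas2 minus Nr1d1 was -5.64 and -5.81 in HFD-WT and -7.58 and -5.58 in HFD-KO, which overlapped. Cry1 minus Per2 was -2.21 and -2.54 in HFD-WT and -2.59 and -2.62 in HFD-KO, a difference of the means of -0.23 without overlap. Arntl minus Dbp and Arntl minus Per3 overlapped between the groups.

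The accessory loop, made up of ROR activators, the D-box factors and bHLH repressors that feed back on the core, held 10 listed genes, of which 9 were tested and Rorb had no reads. By edgeR 0 of the 9 had an adjusted p under 0.05, and 2 with an unadjusted p under 0.05 were higher and 1 was lower (all genes tested, 4.25% and 4.73%). DESeq2 called 0 adjusted (all genes, 0.944%) and 2 unadjusted (all genes, 3.91%). The median log2 fold change was 0.04. Bhlhe40, which encodes the E-box repressor DEC1, had 99.6 and 117 CPM in HFD-WT and 129 and 143 CPM in HFD-KO, which by edgeR was a log2 fold change of 0.33 ± 0.10 (standard error) with an adjusted p = 0.421. Its relative Bhlhe41 had 4.18 and 2.47 CPM against 5.55 and 4.86 CPM, which by edgeR was a log2 fold change of 0.64 ± 0.26 (standard error) with an adjusted p = 0.536. Both were thus higher in each HFD-KO library than in either HFD-WT library.

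Ciart, which encodes CHRONO, another repressor of the BMAL1 and CLOCK pair, had 18.1 and 22.2 CPM in HFD-WT and 14.3 and 15.3 CPM in HFD-KO. Its log2 fold change was -0.44 (standard error 0.12, unadjusted p of 0.0069 and adjusted p = 0.358 by edgeR), close to that of Cry1. Dbp, a D-box activator that is a direct target of BMAL1 and CLOCK, had 88.2 and 80.3 CPM against 107.6 and 90.2 CPM, a log2 fold change of 0.23 with a 95% interval from -0.02 to 0.48. Rora encodes an activator that competes with the REV-ERB proteins for ROREs. Rora had 41.6 and 39.3 CPM against 37.7 and 47.5 CPM, and the groups overlapped. The log2 difference of Rora was 0.07 (95% interval -0.21 to 0.35).

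Protein-level control of the loop runs through kinases, ubiquitin ligases and deubiquitinases that set how long PER and CRY last. Of 20 such genes tested, edgeR called 0 at an adjusted p under 0.05 and 1 lower at an unadjusted p under 0.05, a share near the 4.73% of all genes tested. DESeq2 called the same gene at both (all genes, 0.944% adjusted and 3.91% unadjusted). This was Usp2, a deubiquitinase gene whose own message cycles in liver, with 53.0 and 65.6 CPM in HFD-WT and 36.7 and 35.3 CPM in HFD-KO. Its log2 fold change was -0.72 (standard error 0.11, 95% interval -0.99 to -0.45, unadjusted p of 0.00034 and adjusted p = 0.115 by edgeR). The other 19 genes, among them the casein kinases, Btrc and the AMPK catalytic subunits Prkaa1 and Prkaa2, had log2 fold changes between -0.15 and 0.09. Of 18 coactivators and corepressors of the loop, such as Ncor1, Hdac3, Ep300 and Sirt1, edgeR and DESeq2 each called 0 at an adjusted or an unadjusted p under 0.05, with edgeR log2 fold changes between -0.14 and 0.24.

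Of 18 genes listed as rhythmic outputs of the liver clock, edgeR called 0 at an adjusted p under 0.05, and 1 with an unadjusted p under 0.05 was higher and 3 were lower (all genes tested, 4.25% and 4.73%). DESeq2 called Alas1 after adjustment (all genes, 0.944%) and 3 genes before it (all genes, 3.91%). Alas1, the rate-limiting enzyme of heme synthesis, had 876 and 821 CPM in HFD-WT and 626 and 597 CPM in HFD-KO, which by edgeR was a log2 fold change of -0.47 ± 0.09 (standard error) with an adjusted p = 0.223. Heme is the ligand of the REV-ERB receptors. Nampt, which makes the precursor of NAD, had 80.2 and 87.7 CPM against 62.7 and 68.7 CPM, which by edgeR was a log2 fold change of -0.35 ± 0.09 (standard error) with an adjusted p = 0.330. Wee1, a cell cycle kinase gene under E-box control, had 11.1 and 12.9 CPM against 10.1 and 8.79 CPM, which by edgeR was a log2 fold change of -0.34 ± 0.13 (standard error) with an adjusted p = 0.512. The kinase gene Pim3 lay higher, with 90.3 and 102 CPM against 132 and 115 CPM, which by edgeR was a log2 fold change of 0.36 ± 0.10 (standard error) with an adjusted p = 0.369. Noct, which encodes nocturnin, had 86.5 CPM in HFD-KO replicate 1 and between 37.4 and 42.7 CPM in the other 3 libraries, and Cdkn1a, a cell cycle inhibitor gene, overlapped with between 23.9 and 64.8 CPM. The median log2 fold change of the 18 genes was -0.09.

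Signals that reset the liver clock were followed through 15 genes that respond to glucocorticoids, cyclic AMP, temperature or feeding. By edgeR 0 had an adjusted p under 0.05, and 1 with an unadjusted p under 0.05 was higher and 2 were lower (all genes tested, 4.25% and 4.73%). DESeq2 called 0 adjusted (all genes, 0.944%) and 3 unadjusted (all genes, 3.91%). The glucocorticoid-induced Fkbp5 had 88.6 and 164 CPM in HFD-WT and 40.2 and 68.5 CPM in HFD-KO, which by edgeR was a log2 fold change of -1.22 ± 0.32 (standard error) with an adjusted p = 0.341. With the replicate number as a block its adjusted p by edgeR was 0.010, and with DESeq2's Wald test it was 0.814. When a library was left out, its log2 fold change ranged from -1.65 to -0.70. Lpin1, which encodes the phosphatidate phosphatase lipin and is induced by fasting, had 162 and 334 CPM against 98.5 and 112 CPM, which by edgeR was a log2 fold change of -1.24 ± 0.29 (standard error) with an adjusted p = 0.268. The log2 fold change became -0.62 without HFD-WT replicate 2. The cyclic AMP-induced kinase gene Sik1 had 10.8 and 14.2 CPM against 28.3 and 15.9 CPM, which by edgeR was a log2 fold change of 0.82 ± 0.26 (standard error) with an adjusted p = 0.417. That fold change was 0.34 without HFD-KO replicate 1. Pdk4, another fasting gene, stood at 53.1 CPM in HFD-KO replicate 2 and between 10.9 and 14.4 CPM in the other 3 libraries. Tsc22d3, a further glucocorticoid target, overlapped, with a log2 fold change of -0.01.

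**Figure D4:**
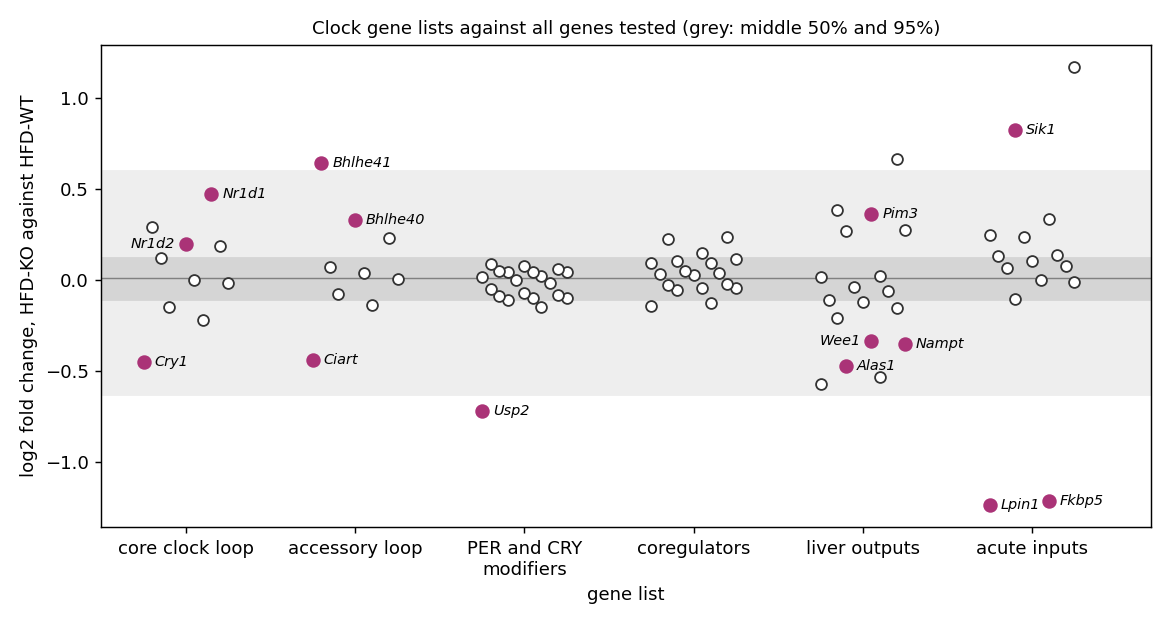
Log2 ratio of HFD-KO to HFD-WT levels (vertical axis) for each tested gene of the 6 clock lists (horizontal axis). Filled points had an unadjusted p under 0.05 by edgeR and are named. Grey bands hold the middle 50% (-0.11 to 0.12) and 95% (-0.63 to 0.60) of all genes tested. The 3 named core clock genes lie inside the wider band, and Usp2, Bhlhe41, Sik1, Lpin1 and Fkbp5 lie outside it.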

How the data were processed

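Polyadenylated liver RNA of 2 HFD-WT and 2 HFD-KO libraries was analysed, with groups and replicate numbers taken from the sample titles. The authors made directional libraries with an MGI Tech kit, aligned paired reads with the MGI Tech tool and quantified genes in Partek Genomics Suite with GENCODE annotation; versions, the use of strand and the handling of multiply aligned reads are not given in the sources used here. The methods name mm10 and the submitters' processing notes name GRCm39 and mm10, and gene positions in the table are those of GRCm39. The counts deposited by the authors are whole reads per gene without normalization, and only these were tested. The RPKM values deposited by the authors are corrected for exon length and depth, and served to compare levels between genes. The TPM values deposited by the authors, scaled to a fixed sum, and the deposited CPM column, a score on an adjusted library size, were not used.

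Tests were run with edgeR 4.0.16 in R 4.3.3. The filterByExpr rule left 12967 of 25655 genes, which were scaled by TMM and compared by the quasi-likelihood test, two-sided and without a block, with Benjamini-Hochberg adjustment over all genes tested. The 95% intervals use the standard error and total degrees of freedom of that fit. The common biological coefficient of variation was 0.102. The procedure was tested on simulated data. Counting error alone did not account for the spread within groups (chi-square per degree of freedom 10.8 in HFD-WT and 42.9 in HFD-KO). Alternatives were DESeq2 1.42.0 (its Wald test, and its size factors in edgeR), library size alone, no filter, the replicate number as a block and leaving out each library. When 1 library was left out, the lone library of its group was assumed to vary like the other group. Tables and plots were made with Python 3.11.15, pandas 2.3.3 and matplotlib 3.10.9. Promoter sequences came from RefSeq on GRCm38.p6.

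The members and gene lists were chosen with earlier results of these data known. Named were all members, Adarb1, Dbp, Rora and, per further list, up to 6 genes by smallest p among those with an unadjusted p under 0.05 or a log2 fold change of at least 0.5 in size; Tsc22d3, Thra, Camta1 and the genes given as examples of a list were named after their values were seen. Single values of some listed genes are not reported here.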

Additional observations from a re-analysis of the deposited data

How the results depend on the processing

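The count of core clock members with an adjusted p under 0.05 was 0 in the reported comparison and 1 (Nr1d1) with no filter on low counts and with DESeq2's Wald test, and it ranged from 0 to 2 when each library was left out. At an unadjusted p under 0.05 the members split into 2 higher and 1 lower. The split was 1 higher and 2 lower with library size alone, where all genes split into 346 higher and 894 lower instead of 551 and 613. It was 2 and 2 with no filter (all 17301 genes, 698 and 789). With DESeq2's Wald test it was 1 and 0 (all 17301 genes, 304 and 372). Leaving out a library gave from 1 to 3 higher and from 0 to 3 lower members. Members without overlap ranged from 4 to 6 in the higher and from 2 to 4 in the lower direction when a library was left out. Separation is met more easily with 1 library against 2, and its share over all genes was not computed for these fits. Over all genes, 10 had an adjusted p under 0.05, against 6 with library size alone, 162 with no filter and 117 with DESeq2's Wald test, and from 4 (without HFD-WT replicate 2) to 624 (without HFD-KO replicate 1) when a library was left out. At an unadjusted p under 0.05 there were 1164 genes, 676 with DESeq2's Wald test and from 479 to 2103 when a library was left out. The 48 other genes of the loop held 4 such genes, and from 2 to 8 when a library was left out. Of these 48 genes 47 were tested, as Rorb had no reads. With all libraries kept, 8.98% of all genes tested had an unadjusted p under 0.05 by edgeR. The median log2 fold change of the activators ranged from -0.37 to 0.46 and that of the period and cryptochrome genes from -0.0711 to 0.0235 when a library was left out, the latter being -0.0454 with library size alone. Single values that changed sign were those of Arntl (-0.37 to 0.28), Npas2 (-1.28 to 0.49), Per3 (-0.0711 to 0.341), Rora (-0.10 to 0.23), Noct (-0.0030 to 1.11), Pdk4 (-0.38 to 1.91) and Cry2 (-0.0193 to 0.0235) when a library was left out. Cry2 was also at -0.000979 with DESeq2 size factors, -0.0454 with library size alone, -0.00392 with no filter and -0.00144 with DESeq2's Wald test. Of 90 recomputed member values, 74 kept their sign and their side of an adjusted p of 0.05, 11 changed sign and 5 newly passed it. Over all 253 recomputed values of single genes and gene pairs, 205 kept both, 14 changed sign and 34 newly passed, the last mostly without HFD-KO replicate 1 or 2. The cause was not tested.

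The groups share replicate numbers, but the labels describe no pairing, and same-numbered libraries did not deviate together from their group means (r = -0.087 across genes, which are not independent replicates). With the replicate number as a block, 20 genes had an adjusted p under 0.05. The members with an unadjusted p under 0.05 split into 1 higher and 2 lower (Per2 and Cry1). Of all 12967 genes tested, 469 were higher and 509 lower at that threshold. Npas2 had between 16 and 50 reads per library, so counting error is larger for it than for the other members.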
